A study of Mus musculus with 8 samples.

Results

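The genes described here code for the adrenergic and dopamine receptors, the cell surface receptors for noradrenaline, adrenaline and dopamine. They are 9 of the 50686 genes in the count matrix of mouse ventral hippocampus, chosen by name: *Adra1a*, *Adra1b*, *Adra1d*, *Adra2a*, *Adra2c* and *Adrb1* for the adrenergic receptors, and *Drd1*, *Drd5* and *Drd2* for the dopamine receptors. Of the other genes of both families, *Adra2b*, *Adrb3*, *Drd3* and *Drd4* are given only beside them. The mice were male C57BL/6J animals of 8 weeks, housed 4 to a cage. An injection of vehicle was given to 4 mice (libraries 1 to 4) and of corticosterone at 3 mg/kg to 4 mice (libraries 5 to 8). Corticosterone is the main glucocorticoid stress hormone of rodents. The ventral hippocampus, the part of the hippocampus nearest to the amygdala, was collected 3 h after the injection, and each library came from the RNA of 1 dissected tissue sample with all its cell types mixed. No allele, transgene or further treatment separated the groups. The composition of the vehicle and which mice shared a cage are not given in the sources used here, and the part of either in the values was not tested. The comparison asks whether the mRNA of each receptor differed 3 h after the hormone.

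Noradrenaline reaches the hippocampus from the locus coeruleus and dopamine from the midbrain and the locus coeruleus. All receptors of both families cross the membrane in a bundle of helices and act through G proteins. Alpha-1 receptors couple to Gq proteins and phospholipase C, alpha-2 receptors to Gi proteins that lower cyclic AMP, and beta receptors to Gs proteins that raise it. Among the dopamine receptors, D1-like receptors (*Drd1*, *Drd5*) raise cyclic AMP through Gs and its relative Golf, and D2-like receptors (*Drd2*, *Drd3*, *Drd4*) lower it through Gi and Go. In the hippocampus these receptors are known to shape synaptic plasticity and memory for events with an emotional load.

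A stretch of coding sequence that all 9 genes share holds the codons for Asp-Arg-Tyr, the DRY motif at the inner end of the third helix, which takes part in receptor activation. It is shown because it carries the subfamily relations by which the results are ordered. The GENCODE M21 transcripts (GRCm38) were searched for it, and each window of 69 bases below runs 5′ to 3′ on the coding strand, with the 9 bases of the DRY codons in capitals and 30 bases on each side.
Adra1a: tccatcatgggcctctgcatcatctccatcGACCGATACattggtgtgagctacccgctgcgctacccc
Adra1b: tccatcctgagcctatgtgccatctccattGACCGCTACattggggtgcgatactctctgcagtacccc
Adra1d: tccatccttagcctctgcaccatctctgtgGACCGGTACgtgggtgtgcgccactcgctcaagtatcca
Adra2a: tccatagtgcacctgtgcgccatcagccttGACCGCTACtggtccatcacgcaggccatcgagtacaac
Adra2c: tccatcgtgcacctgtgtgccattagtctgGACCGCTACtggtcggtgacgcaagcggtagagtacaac
Adrb1: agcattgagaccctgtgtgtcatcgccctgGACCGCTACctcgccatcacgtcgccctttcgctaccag
Drd1: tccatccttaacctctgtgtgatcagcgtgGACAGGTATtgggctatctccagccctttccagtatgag
Drd5: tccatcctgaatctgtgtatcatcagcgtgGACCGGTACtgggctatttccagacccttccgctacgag
Drd2: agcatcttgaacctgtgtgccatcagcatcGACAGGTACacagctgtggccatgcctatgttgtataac
The windows lie in the coding exons at chr14:66637914-66637982 (plus strand), chr11:43835627-43835695 (minus), chr2:131561572-131561640 (minus), chr19:54046617-54046685 (plus), chr5:35280297-35280365 (plus), chr19:56722804-56722872 (plus), chr13:54053801-54053869 (minus) and chr5:38320038-38320106 (plus). The *Drd2* window is joined from 2 exons between 49399811 and 49400777 on the plus strand of chromosome 9. Over the 36 pairs of windows, the most alike were *Adra2a* and *Adra2c*, with 57 of 69 bases identical, followed by *Drd1* and *Drd5* with 56 and *Adra1a* and *Adra1b* with 54. *Adra1d* and *Adrb1* were the least alike, with 32 of 69. At 21 positions all 9 windows had the same base, and 6 of these lay in the capitals. The 9 genes spelled these codons differently, and GACCGCTAC served 4 genes (*Adra1b*, *Adra2a*, *Adra2c* and *Adrb1*) while GACCGGTAC served *Adra1d* and *Drd5*.

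The members also differed in base composition, which matters for the libraries below. Transcript GC content was 65.4% for *Adra1d*, 65.5% for *Adra2c*, 58.8% for *Adrb1* and 58.6% for *Adra2a*, between the 92.3rd and 99.6th percentile of the 16018 genes tested, whose median was 49.7%. *Drd2* (55.0%), *Adra1b* (54.5%), *Drd5* (52.7%) and *Adra1a* (50.1%) lay nearer the median. *Drd1*, at 46.0%, was the 1 member below it. *Adra2a*, *Adra2c*, *Adrb1* and *Drd5* have a longest annotated transcript of 1 exon. *Drd5* overlaps the gene *Gm26560* on the opposite strand over 1531 bases, and *Adra1d* overlaps *Gm14285* over 147 bases. *Gm26560* had 3 to 14 reads per library and *Gm14285* 32 to 61. The libraries were stranded, but the strand setting of the counting is not given in the sources used here, so these 2 receptors are counted with that uncertainty.

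Total counts on genes ran from 19214090 to 19931987 in the vehicle libraries and from 17492159 to 19776297 in the corticosterone libraries. *Fkbp5*, a co-chaperone of the glucocorticoid receptor that the hormone is known to induce, was at 1709 to 2373 normalized counts after vehicle and 3177 to 3510.5 after corticosterone (log2 fold change 0.76, edgeR quasi-likelihood test, adjusted p = 0.0481). It was the only gene past the threshold of 0.05 of the 16018 tested (0.00624%). The libraries also differed in how counts depended on base composition: the slope of log2 counts on transcript GC content, per 10 percentage points, was 0.060, 0.14, 0.18 and -0.084 in vehicle 1 to 4 and 0.20, -0.18, -0.13 and -0.18 in corticosterone 5 to 8. Corticosterone 5 was the only library of its group with a positive slope, and vehicle 4 the only vehicle library with a negative one. The members were therefore also fitted without corticosterone 5 and with the GC and length trend removed. Corticosterone 6 to 8 all had negative slopes, so leaving out corticosterone 5 tied the treatment more closely to the slope. The share of reads that matched more than 1 gene model was 1.40 to 1.67% after vehicle and 1.25 to 1.48% after corticosterone (exact permutation test, two-sided, p = 0.0571), and the share that mapped to more than 1 place was 0.0699 to 0.111% and 0.0420 to 0.0536% (p = 0.0286, exact, the smallest that 70 assignments of 4 against 4 allow). When the former share was fitted as a covariate, 7 of the 9 members changed direction, among them *Adra1d* at 0.62 (edgeR adjusted p = 0.0569) and *Drd1* at -0.65. In that share the groups overlapped only through vehicle 4 (1.40%) and corticosterone 5 (1.48%). Covariate and treatment therefore nearly coincided, and the fold changes of that fit rest largely on these libraries. The part of the reads that mapped to more than 1 place was not tested.

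None of the 9 receptor genes passed the threshold. By edgeR, 0 of 9 had an adjusted p under 0.05, against 0.00624% of all genes tested, and 0 of 9 had an unadjusted p under 0.05, against 9.03% of all genes. DESeq2 also gave 0 and 0, against 0.374% and 8.30% of the 16826 genes with an adjusted p. In 0 of 9 did the values of the groups separate, against 3.66% of the genes tested. In all, 7 of the 9 fitted log2 fold changes were negative and 2 positive, with a median of -0.17 over the members and 0.0036 over all genes tested, of which 49.3% were negative. The lean to negative values did not hold in several other fits. With the GC and length trend removed, 4 of 9 were negative (median 0.0041), and 4 of 9 when corticosterone 5 was left out as well (median 0.0115). With 1 surrogate variable (an unlabelled source of variation estimated from the counts) 4 of 9 were negative (median 0.043). The share of reads matching several gene models as a covariate gave 2 of 9 (median 0.25). The sign of the GC slope as a factor gave 5 of 9, with a median of -0.0145. In whole tissue, fewer cells of a type and less RNA per cell cannot be told apart, here and throughout.

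**Figure D1:**
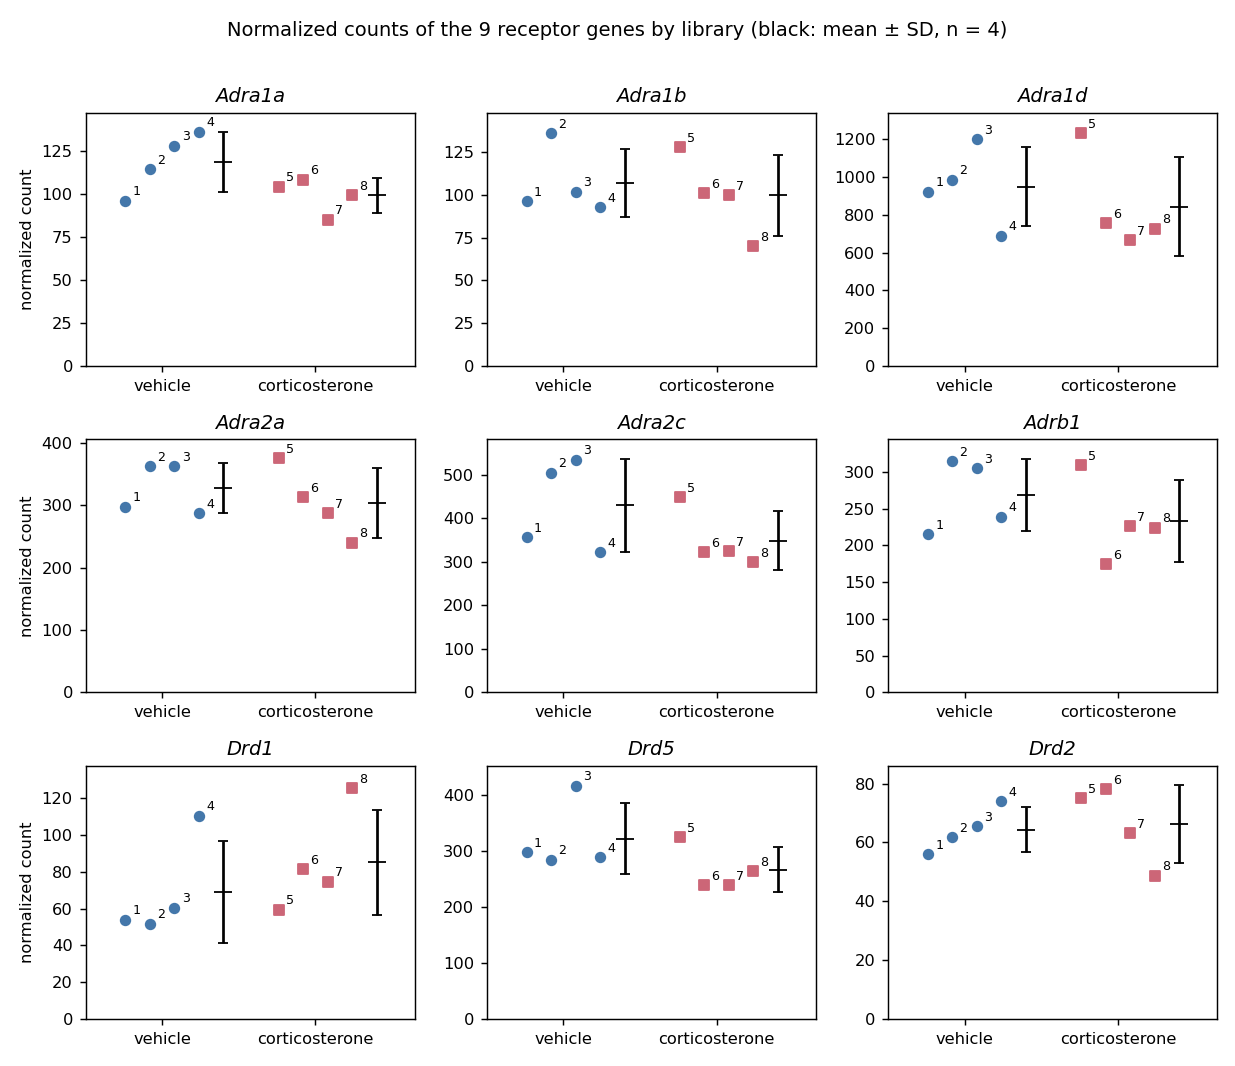
Normalized counts of the 9 receptor genes (vertical axes, starting at 0) in each library, numbered 1 to 8, with the mean and SD of each group of 4 in black. In every panel the groups overlap, and for *Adra1b*, *Adra1d*, *Adra2a*, *Adra2c*, *Adrb1* and *Drd5* corticosterone 5 is the highest library of its group.

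Among the alpha-1 receptors, *Adra1d*, the alpha-1D receptor, had the highest level per length of the 9 in every library. Its normalized counts, which are counts divided by the effective library size and scaled to the mean library, were 922.2, 984.4, 1200.2 and 689.1 in vehicle 1 to 4 and 1230.1, 754.0, 664.2 and 725.9 in corticosterone 5 to 8. Corticosterone 5, vehicle 3, vehicle 2 and vehicle 1 were high, and vehicle 4 lay with corticosterone 6 to 8. The means were 949.0 ± 210.3 and 843.5 ± 260.4 (SD, n = 4 each), and the fitted log2 fold change was -0.17 (SE 0.19, 95% interval -0.58 to 0.24, edgeR adjusted p = 0.736). Without corticosterone 5 the mean of the treated group was 714.7 ± 45.9 and the fold change -0.41 (unadjusted p = 0.00934, edgeR adjusted p = 0.0673). Without vehicle 3 it was -0.039, and it turned positive with the GC and length trend removed (0.10) and with 1 surrogate variable (0.18, unadjusted p = 0.0330, edgeR adjusted p = 0.735).

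*Adra1b*, the alpha-1B receptor, was at 96.2, 136.2, 101.7 and 92.8 normalized counts after vehicle and at 127.7, 100.9, 99.8 and 70.2 after corticosterone. The highest was vehicle 2 and the lowest corticosterone 8, and the remaining libraries of both groups mixed. Its log2 fold change was -0.099 (SE 0.19, 95% interval -0.51 to 0.31, edgeR adjusted p = 0.848). *Adra1a*, the alpha-1A receptor, was at 96.2, 114.6, 128.1 and 136.2 after vehicle and at 104.3, 108.5, 85.1 and 99.4 after corticosterone. Vehicle 2, 3 and 4 lay above all 4 treated libraries, but vehicle 1 lay below 3 of them. The log2 fold change was -0.26 (SE 0.15, 95% interval -0.57 to 0.056, edgeR adjusted p = 0.561, exact permutation p = 0.143).

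The alpha-2 receptors are known both as brakes on noradrenaline release and as receptors of the target cells. *Adra2c*, the alpha-2C receptor, was at 355.5, 504.4, 534.1 and 321.8 normalized counts after vehicle and at 447.4, 322.2, 323.7 and 298.1 after corticosterone. Vehicle 3 and 2 and corticosterone 5 were high, and vehicle 4 was at the level of corticosterone 6 and 7. With group means of 429.0 ± 105.9 and 347.9 ± 67.4, its log2 fold change of -0.30 was the most negative of the members (SE 0.17, 95% interval -0.67 to 0.070, edgeR adjusted p = 0.566). Without corticosterone 5 it was -0.45 (unadjusted p = 0.0117, edgeR adjusted p = 0.0756), without vehicle 3 it was -0.18, with the GC and length trend removed 0.0041 and with 1 surrogate variable -0.0041. *Adra2a*, the alpha-2A receptor, was at 297.6, 362.4, 361.9 and 287.3 after vehicle and at 375.3, 312.4, 286.9 and 239.7 after corticosterone. Its 3 highest libraries were again corticosterone 5, vehicle 2 and vehicle 3. The log2 fold change was -0.11 (SE 0.14, 95% interval -0.40 to 0.19, edgeR adjusted p = 0.765).

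*Adrb1* codes for the beta-1 receptor, one of the Gs-coupled receptors through which noradrenaline raises cyclic AMP. It was at 215.1, 314.4, 305.2 and 238.9 normalized counts after vehicle and at 309.0, 174.7, 226.0 and 224.1 after corticosterone. Vehicle 2, vehicle 3 and corticosterone 5 were the 3 highest, and corticosterone 6 was the lowest. The log2 fold change was -0.20 (SE 0.17, 95% interval -0.57 to 0.17, edgeR adjusted p = 0.663), and -0.36 without corticosterone 5 (unadjusted p = 0.0266, edgeR adjusted p = 0.117). It was -0.059 with the GC and length trend removed and 0.043 with 1 surrogate variable.

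Of the D1-like receptors, *Drd5*, the D5 receptor, had a higher level per length than *Drd1* in every library. *Drd5* was at 298.6, 285.0, 417.7 and 289.3 normalized counts after vehicle and at 325.6, 239.7, 239.6 and 264.0 after corticosterone. Vehicle 3 was far above the other vehicle libraries, and corticosterone 6, 7 and 8 were the 3 lowest of all. The means were 322.6 ± 63.6 and 267.2 ± 40.5, and the log2 fold change was -0.27 (SE 0.14, 95% interval -0.58 to 0.041, edgeR adjusted p = 0.548), the member with the smallest unadjusted p, 0.0835. Without corticosterone 5 it was -0.38 (unadjusted p = 0.0134, edgeR adjusted p = 0.0817), without vehicle 3 it was -0.12, and with 1 surrogate variable -0.086.

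*Drd1*, the D1 receptor, was at 54.0, 51.9, 60.6 and 110.6 normalized counts after vehicle and at 59.5, 81.4, 74.6 and 125.7 after corticosterone. Vehicle 4 and corticosterone 8 were high, and vehicle 1 to 3 and corticosterone 5 were low. With means of 69.3 ± 27.8 and 85.3 ± 28.5, the log2 fold change was 0.30 (SE 0.27, 95% interval -0.29 to 0.89, edgeR adjusted p = 0.678). It was 0.61 without vehicle 4 (unadjusted p = 0.0247, edgeR adjusted p = 0.298) and 0.047 without corticosterone 8. *Drd1* had the widest spread of the members: its highest library held 2.42 times the lowest, and its coefficient of variation was 40.1% after vehicle and 33.4% after corticosterone, where counting error alone at its depth gives 11.4%.

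*Drd1* and *Drd2* are defining genes of striatal projection neurons, so a list of other genes of those neurons was read beside them. Its summed normalized counts were 583.4 to 756.2 after vehicle and 728.1 to 836.4 after corticosterone. Of its 10 genes, 6 passed the filter on low counts, 0 were past the threshold, and 5 of the 6 had positive fold changes. The transcription factor genes *Isl1* and *Six3* were at or near 0 (0 to 0.97 and 0.97 to 5.88 normalized counts), and *Adora2a* was at 4.34 to 14.6. The part of these cells in the *Drd1* values was not tested.

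*Drd2*, the D2 receptor, was at 56.0, 61.7, 65.5 and 74.0 normalized counts after vehicle and at 75.1, 78.1, 63.1 and 48.7 after corticosterone. Corticosterone 6 and 5 and vehicle 4 were the highest and corticosterone 8, the highest for *Drd1*, was the lowest. The means of 64.3 ± 7.6 and 66.2 ± 13.4 gave a log2 fold change of 0.040 (SE 0.18, 95% interval -0.35 to 0.43, edgeR adjusted p = 0.941). Its spread after vehicle, a coefficient of variation of 11.8%, was no wider than the 12.4% of counting error. For the other members counting error was 3.33 to 11.4%, below the spread within each group.

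**Figure D2:**
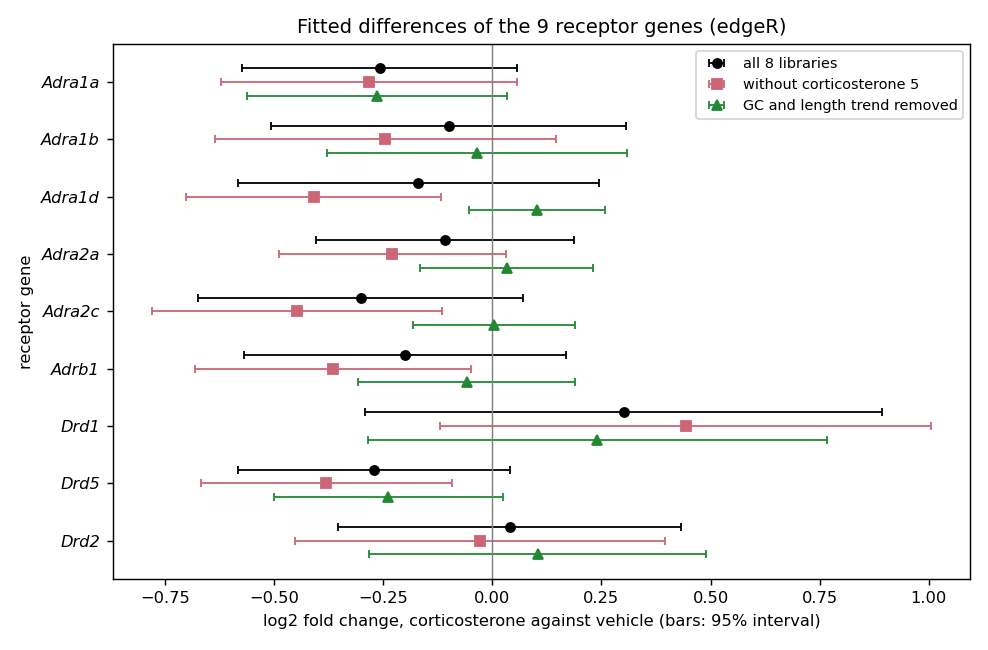
Fitted log2 fold changes (horizontal axis, corticosterone against vehicle) with 95% intervals for the 9 receptor genes, from all 8 libraries, without corticosterone 5, and with the GC and length trend removed. With all libraries every interval spans 0, and with the trend removed *Adra1d*, *Adra2a* and *Adra2c* move to 0.10, 0.033 and 0.0041.

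With corticosterone 5 left out, 8 of 9 fitted fold changes lay farther from 0. The treated libraries left, corticosterone 6 to 8, all had negative GC slopes, while vehicle 1 to 3 had positive ones. Treatment and GC slope were thus closely tied in that fit, which cannot by itself separate them. In that fit 8 of 9 fold changes were negative with a median of -0.28, and 4 of 9 members (*Adra1d*, *Adra2c*, *Adrb1* and *Drd5*) had an unadjusted p under 0.05, against 29.0% of the 16181 genes tested. No member had an edgeR adjusted p under 0.05, against 10.2% of all genes. The fold changes of the other members were then -0.28 for *Adra1a*, -0.25 for *Adra1b*, -0.23 for *Adra2a*, 0.44 for *Drd1* and -0.028 for *Drd2*. A count of 4 of 9 does not set the members apart from a background of that size. Without corticosterone 5, 1651 genes were past the threshold, and 211 when the GC and length trend was removed as well. In the latter fit 4 of 9 members were negative, with a median of 0.0115.

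For several members the differences between libraries moved with base composition. *Adra1d* and *Adra2c*, the members with the highest GC content, were higher in all 4 libraries with a positive GC slope (vehicle 1, 2 and 3 and corticosterone 5) than in any of the 4 with a negative slope, which was also so for 14.6% of the genes tested. *Drd1*, the member with the lowest GC content, was lower in all 4 of the former than in any of the latter, as were 13.8% of the genes tested. The mean log2 CPM of corticosterone minus vehicle among the 4 libraries with a positive slope (corticosterone 5 against 3 vehicle libraries) was 0.26 for *Adra1d*, -0.032 for *Adra2c* and 0.098 for *Drd1*. Among the 4 with a negative slope (corticosterone 6, 7 and 8 against vehicle 4) it was 0.050 for *Adra1d*, -0.033 for *Adra2c* and -0.27 for *Drd1*. For *Adra1a* the same differences were -0.10 and -0.48, and for *Drd5* -0.014 and -0.22. With 1 library on 1 side of each of these differences, they have no test.

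Removing from each library the trend of counts with GC content and length, fitted over all genes, took away much of the spread of the GC-rich members. The SD of log2 CPM over the 8 libraries went from 0.35 to 0.12 for *Adra1d*, from 0.33 to 0.11 for *Adra2c*, from 0.22 to 0.12 for *Adra2a* and from 0.30 to 0.18 for *Adrb1*. It stayed at 0.22 for *Adra1a* and went from 0.46 to 0.42 for *Drd1*, from 0.26 to 0.23 for *Drd5* and from 0.22 to 0.23 for *Drd2*. With the trend removed, the fitted log2 fold changes were 0.10 for *Adra1d*, 0.0041 for *Adra2c*, 0.033 for *Adra2a* and -0.059 for *Adrb1*. For *Adra1b* it was -0.035 and for *Drd2* 0.10. The values of *Adra1a* (-0.26), *Drd5* (-0.24) and *Drd1* (0.24) moved little, the median of the members was 0.0041, and 0 of 9 members had an unadjusted p under 0.05, against 9.72% of all genes in that fit. None had an edgeR adjusted p under 0.05, against 0.131%.

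**Figure D3:**
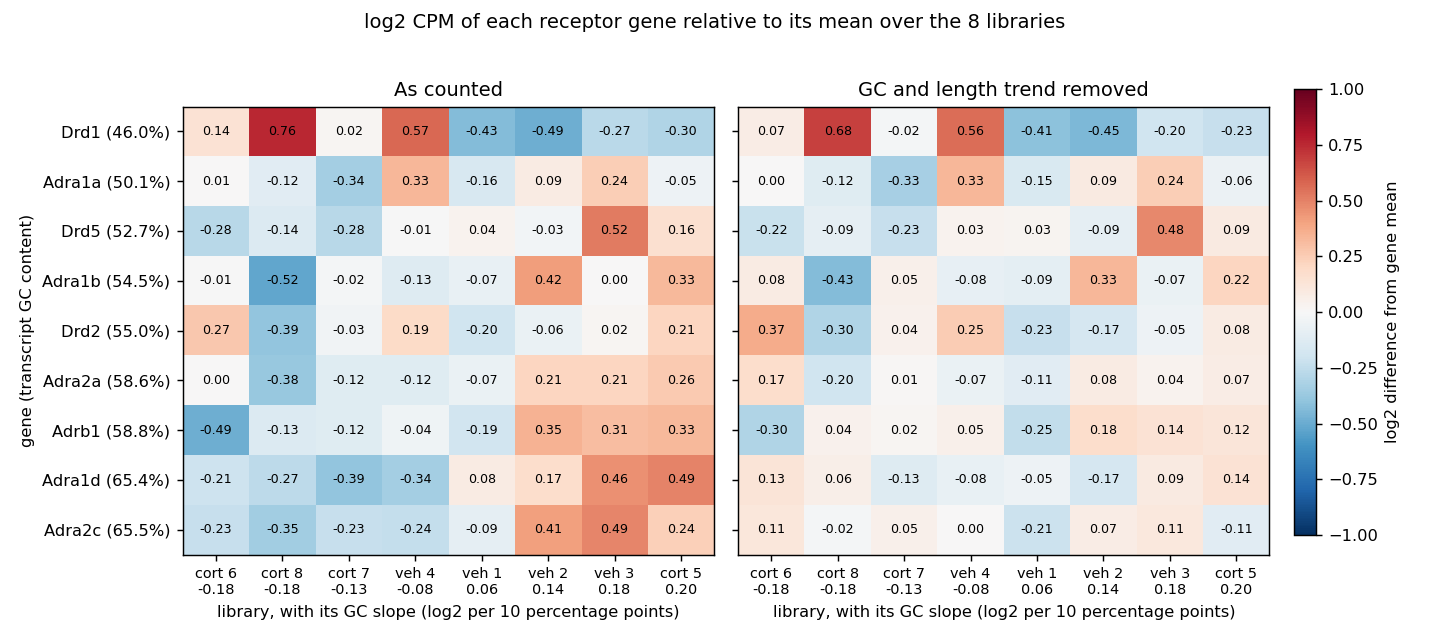
Log2 CPM of each receptor gene relative to its own mean, as counted (left) and with the GC and length trend removed (right), in the libraries ordered by GC slope, with the genes ordered by transcript GC content. On the left *Adra1d* and *Adra2c* are below their means in the 4 libraries with negative slopes, and on the right their ranges narrow from 0.89 to 0.31 and from 0.84 to 0.32, while *Drd1* keeps a range of 1.13.

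Levels between genes were compared per length, as RPKM, the reads per kilobase of exon scaled to library size. *Adra1d* was the highest at 24.6 ± 6.2 (SD, n = 8 libraries, both groups), at the 86.8th percentile of the genes tested, and its lowest library (18.3) lay above the highest library of any other member. *Adra2c* (5.89 ± 1.41), *Drd5* (4.89 ± 0.95), *Adrb1* (3.87 ± 0.80) and *Adra2a* (3.41 ± 0.51) followed as a middle set, near the median gene tested (4.61). Their ranges overlapped from each to the next, although *Adra2c* was above *Drd5* in 8 of 8 libraries. *Drd5* was above *Adrb1*, and *Adrb1* above *Adra2a*, in 7 of 8.

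A lower set began below *Adra2a*, whose lowest library (2.59) was above the highest of *Adra1b* (2.10). *Adra1b* (1.59 ± 0.32), *Drd2* (1.34 ± 0.21) and *Drd1* (1.11 ± 0.39) overlapped, and *Adra1b* was above *Drd2*, and *Drd2* above *Drd1*, in 6 of 8 libraries. *Adra1a* came last at 0.65 ± 0.10, at the 14.7th percentile. Its place rests on the length used: over its longest annotated transcript, of 4282 bases in place of the 8728 of all its exons, it was at 1.33 and above *Drd1*, at 1.13. The order of the other 7 was the same with that length.

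**Figure D4:**
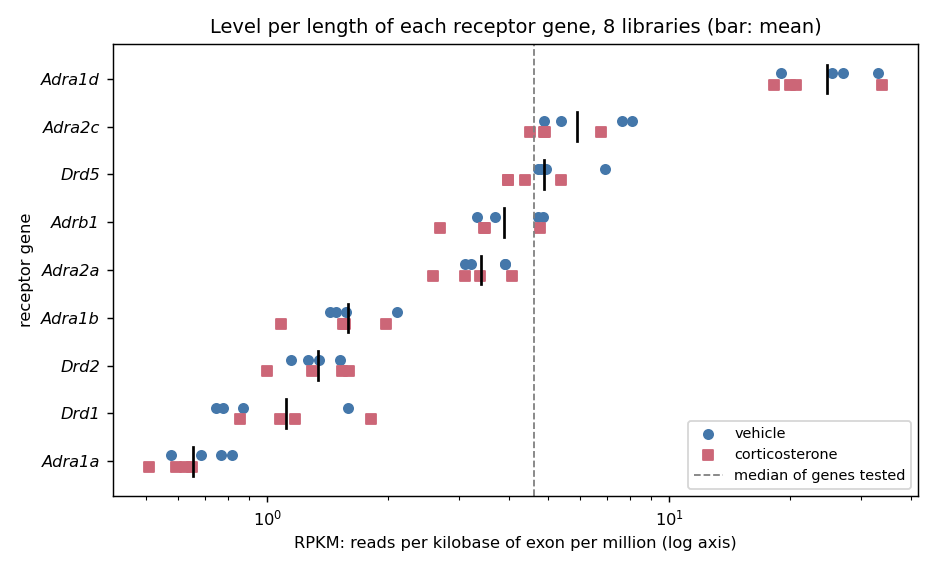
RPKM (reads per kilobase of exon scaled to library size, log axis) of each receptor gene in the 8 libraries, vehicle as circles and corticosterone as squares, with the mean as a bar and the median gene tested (4.61) as a dashed line. *Adra1d* stands alone at 18.3 to 33.8, and *Adra1a* lies lowest at 0.51 to 0.82.

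Other receptor genes of both families were scarce. *Adrb3*, the beta-3 receptor, was at 10.8, 7.84, 4.89 and 7.90 normalized counts after vehicle and at 3.90, 4.34, 2.10 and 4.87 after corticosterone, and its groups did not overlap, as was so for 3.66% of the genes tested (exact permutation p = 0.0286, two-sided). It had 2 to 11 reads per library and was below the filter for the fit. *Adra2b*, *Drd3* and *Drd4* had 0 to 7, 0 to 2 and 0 to 4 reads per library, and no difference was detectable at this depth.

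Genes of the catecholamine pathway were read from lists, each with 0 genes past the threshold in either direction. Of the enzymes and vesicle transporters that make and store catecholamines, 4 of 7 were tested, 3 with positive fold changes (median 0.20). *Ddc*, the decarboxylase that forms dopamine, was at 78.1 ± 28.5 normalized counts after vehicle and 100.0 ± 5.3 after corticosterone (log2 fold change 0.36, edgeR adjusted p = 0.573), and *Gch1*, which makes the cofactor of tyrosine hydroxylase, had a fold change of 0.27 (edgeR adjusted p = 0.728). Of the uptake carriers and breakdown enzymes, 5 of 8 were tested, 3 with negative fold changes. *Slc29a4*, a low-affinity monoamine carrier, was at 688.2 ± 84.8 normalized counts after vehicle and 511.1 ± 80.4 after corticosterone (log2 fold change -0.43, edgeR adjusted p = 0.386).

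Downstream of the receptors no gene of the lists passed the threshold. All 10 G protein alpha subunits were tested, 7 with negative and 3 with positive fold changes (median -0.034). *Gnas*, the Gs subunit and the one with the most reads, was at 28859 ± 507 normalized counts after vehicle and 28772 ± 672 after corticosterone (-0.0043, edgeR adjusted p = 0.981). *Gna11* of the Gq class was at -0.19 and *Gnai1* of the Gi class at 0.16 (edgeR adjusted p = 0.545 for both). Of 20 effector enzymes 14 were negative (median -0.061), among them *Adcy7* at -0.25 and *Adcy1*, the calcium-stimulated adenylyl cyclase and the one with the most reads, at -0.099. *Prkacb*, a catalytic subunit of protein kinase A, was at 0.14, and the edgeR adjusted p of these 3 was 0.601, 0.697 and 0.605.

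Among 14 receptor kinases, arrestins and RGS proteins, which end receptor signalling, 8 were negative (median -0.060). *Rgs14*, which is also on the list of markers of the CA2 field, was at 1888 ± 251 and 1516 ± 349 normalized counts (-0.32, unadjusted p = 0.0399, edgeR adjusted p = 0.545), *Grk6* had a fold change of -0.13 and *Arrb1*, beta-arrestin 1, of -0.058. Of 9 phosphodiesterases, which break down cyclic nucleotides, 6 were negative (median -0.10). *Pde10a* was at -0.15, *Pde1b* at -0.14 and *Pde1a*, with the most reads, at 0.16 (edgeR adjusted p = 0.545, 0.546 and 0.546). Against 9.03% of all genes tested, 0 to 2 genes of each of these lists had an unadjusted p under 0.05.

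**Figure D5:**
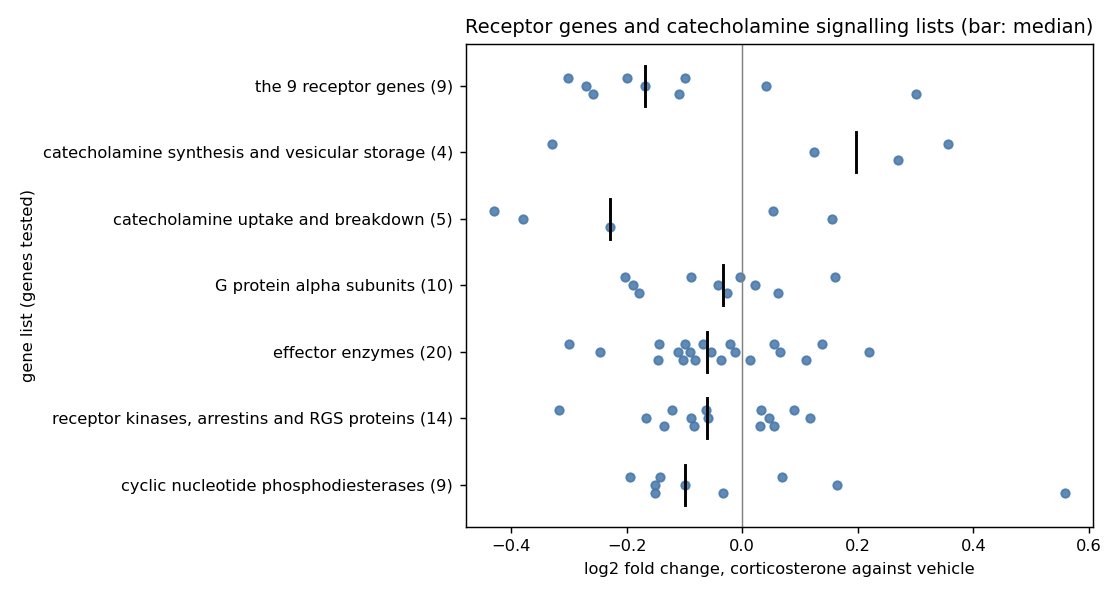
Fitted log2 fold changes (horizontal axis, corticosterone against vehicle) of the genes tested in each list, 1 point per gene, with the list's median as a bar. The 9 receptor genes lie between -0.30 and 0.30 with a median of -0.17, and the G protein subunits have a median of -0.034.

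Marker lists were read to describe the tissue. No list of the dorsal hippocampus was read beside them, so they cannot test the label of the ventral part. Markers of dentate granule cells summed to 5109 to 6555 normalized counts per library, of CA1 pyramidal cells to 7248 to 10117, and of CA3 and CA2 pyramidal cells to 5449 to 6835. Those of the ventral hippocampus summed to 3769 to 5698 after vehicle and 5296 to 7011 after corticosterone, with 4 of 5 fold changes positive. None of the genes on these lists was past the threshold, nor was any on the lists of mossy cells, interneurons, Cajal-Retzius cells, glia, vessels or choroid plexus, and 0 to 2 genes of each list had an unadjusted p under 0.05. Choroid plexus markers, from tissue that lies against the hippocampus, summed to 412.7 to 1306 after vehicle and 615.9 to 1355 after corticosterone, and oligodendrocyte markers to 56946 to 100762 and 55961 to 69271. Microglial markers summed to 6438 to 6679 after vehicle and 5105 to 6281 after corticosterone, with 4 of 5 fold changes negative. Vehicle 1 had the lowest sum of ventral markers and the highest of oligodendrocyte markers. The part of any of these cell types, or of the dissection, in the receptor values was not tested.

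For each member, the gene with the most similar profile was sought by Pearson r of log2 CPM over the 8 libraries among 13557 candidates. *Adra2c* was most like *Tm9sf1* (r = 0.996, Spearman rho = 1), *Adra1d* most like *Abcb8* (0.987, 0.952) and *Adra2a* most like *Pnck* (0.984, 0.881). *Adrb1* paired with *Phf1* (0.980, 0.929) and *Drd5* with *Clec16a* (0.979, 0.905). *Drd2* paired with *Fzd1* (0.967, 0.952), *Adra1b* with *Psmf1* (0.963, 0.976), *Drd1* with *Dnal1* (0.962, 0.929) and *Adra1a* with *Hacd4* (0.942, 0.976). These are the highest of many values over 8 libraries that share the GC differences above, so they describe the libraries and carry no p. None of the genes named was itself a member.

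Promoters, from 250 bases before to 50 after the start site, were taken from RefSeq (GRCm38.p6), which gave 9 promoters for 7 of the members, while *Adra1a* and *Adra1d* had no entry. On both strands, the glucocorticoid response element core TGTTCT was in 0 of 9, against 19.0% of all 32851 promoters, and the full palindrome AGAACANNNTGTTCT, which holds that core, in 0 of 9 against 0.00913%. The cyclic AMP response element TGACGTCA was in 0 of 9 (1.79% of all), and the shorter TGACG, which lies within it, in those of *Adra2a*, at position -69 from the start, and *Adrb1*, at -90 (20.8%). The GC box GGGCGG was in 7 of 9 (35.7%), and TATAAA only in that of *Adra2a* (13.6%). The promoters with a GC box were rich in G and C, at 59.3 to 72.3%, against a median of 52.7% over all promoters. That of *Adra2c* (51.3%) and the other one of *Adra1b* (42.3%) had no GC box. These matches describe the windows searched. The palindrome was so rare over all promoters that 0 of 9 was nearly certain. The authors state that glucocorticoid receptor binding sites often lie farther from the start sites of their target genes, and name *Adra1b* as a typical example. The lack of a match in these windows therefore does not show that a member lacks such an element.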

How the data were processed

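Bulk RNA was sequenced from the ventral hippocampus of 4 vehicle and 4 corticosterone mice, as stranded mRNA libraries of 100 bp paired ends. The authors aligned the reads to mm10 with GSnap 2017-09-11 and deposited raw gene counts from HTSeq-count 0.6.0, and the annotation release and strand setting are not given in the sources used here. The 5 rows of unassigned reads stayed out of the library sizes (5.40 to 5.89% of the reads had no feature). Symbols were assigned with GENCODE M21. Counts were fitted in edgeR 4.0.16 (TMM factors, filterByExpr, quasi-likelihood test, Benjamini-Hochberg adjustment over all 16018 genes tested, threshold 0.05), with the treatment as the only factor. Fold changes of single genes were also checked with an exact two-sided permutation test over 70 assignments. Standard errors are the fold change over the square root of F.

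The alternatives were DESeq2 1.42.0, its size factors, upper-quartile scaling, no filter, at least 10 reads in every library, limma-voom (limma 3.58.1), 1 surrogate variable (sva 3.50.0), a GC and length trend removed with splines of 5 degrees of freedom, the ambiguous share as a covariate, and leaving out each library. The functions were tested on simulated data. The members and lists were chosen with earlier results of these data known. Named are the members, the other receptors, from each pathway list the 2 genes with the smallest unadjusted p and the one with the most reads, any list gene past the threshold, the gene most like each member, and *Fkbp5*. Some genes that this rule names are not reported here. Log2 CPM used a prior count of 2. RNA integrity was stated only as a limit, and the mice are taken as independent replicates.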

Additional observations from a re-analysis of the deposited data

Results flagged for a closer look

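Within a group of 4, a value was singled out when its gap to the nearest other library, divided by the range of the group, was above Dixon's 95% critical value. Over 26 groups tested, chance gives about 1 in 20, or 1.3, and 6 values were singled out. For *Adra1d*, corticosterone 5 was at 1230.1 normalized counts, against 664.2 to 754.0 in the other 3 corticosterone libraries. For *Drd1*, vehicle 4 was at 110.6, against 51.9 to 60.6 in the other vehicle libraries. For *Drd5*, vehicle 3 was at 417.7, against 285.0 to 298.6.

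Corticosterone 5 and vehicle 4 were also singled out in technical measures. The GC slope of corticosterone 5 was 0.1985 log2 per 10 percentage points, against -0.183 to -0.13 in the rest of its group. The share of ambiguous reads was 1.404% in vehicle 4, against 1.64 to 1.67% in vehicle 1 to 3, and 1.483% in corticosterone 5, against 1.25 to 1.28% in corticosterone 6 to 8. In vehicle 3, high for *Drd5*, 6.35% of the reads were not aligned, against 7.06 to 7.13% in the other vehicle libraries. This share was not among the values singled out. Corticosterone 5 had 6.45% not aligned, with *Drd5* at 325.6 normalized counts, and a link between the share and *Drd5* was not tested.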

How the results depend on the processing

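No member passed the threshold under any setting run. The number of genes past it was 1 in the first fit, 63 with DESeq2, 79 with no filter, 0 with at least 10 reads in every library, 2 with 1 surrogate variable, 21 with the GC and length trend removed and 38 with the ambiguous share as a covariate. Leaving out 1 library gave 0 to 1651, the latter without corticosterone 5 and 19 without vehicle 1. All 9 members kept their direction with DESeq2, its size factors, upper-quartile scaling, limma-voom and both filters.

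Directions turned as follows, in log2 fold change. With 1 surrogate variable *Adra1b* was 0.11, *Adra1d* 0.18, *Adra2a* 0.081, *Adrb1* 0.043 and *Drd1* -0.095. With the trend removed *Adra1d* was 0.10, *Adra2a* 0.033 and *Adra2c* 0.0041. With the ambiguous share *Adra1b* was 0.36, *Adra1d* 0.62 (edgeR adjusted p = 0.0569), *Adra2a* 0.30, *Adra2c* 0.34, *Adrb1* 0.25, *Drd1* -0.65 and *Drd5* 0.077. Leaving out 1 library, the fold change ranged from -0.25 to 0.040 for *Adra1b* (positive without vehicle 2 and, at 0.035, without corticosterone 8) and from -0.046 to 0.16 for *Drd2* (negative without corticosterone 6, at -0.028 without corticosterone 5 and -0.024 without vehicle 1). It was -0.41 to -0.039 for *Adra1d*, -0.45 to -0.18 for *Adra2c*, -0.23 to -0.013 for *Adra2a*, -0.36 to -0.084 for *Adrb1*, -0.38 to -0.12 for *Drd5*, -0.35 to -0.19 for *Adra1a* and 0.047 to 0.61 for *Drd1*. The cause was not tested.

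A pair of settings was chosen after seeing the data. The trend removed without corticosterone 5 gave 211 genes past the threshold, with *Adra1d* at 0.063, *Adra2a* at 0.011 and *Adra2c* at 0.039, and *Drd5*, which kept its direction, at -0.32 (unadjusted p = 0.0254, edgeR adjusted p = 0.228). The sign of the GC slope as a factor gave 16, with *Adra1b* at 0.084, *Adra1d* at 0.16, *Adra2a* at 0.053 and *Drd1* at -0.085. *Drd5* kept its direction there at -0.13, and at -0.086 with 1 surrogate variable.

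No paired analysis was possible because replicate numbers 1 to 4 belong to vehicle and 5 to 8 to corticosterone. With 4 mice a group, the 95% interval of the fold ratio was, on the log scale, narrowest for *Adra2a*, at 0.755 to 1.14, and widest for *Drd1*, at 0.817 to 1.86.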
